A study of Homo sapiens with 34 samples.

Results

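TMPRSS2, an androgen-regulated serine protease of the prostate epithelium, and 9 transcription factors of the ETS family (ERG, ETV1, ETV4, ETV5, ETS1, ETS2, SPDEF, EHF and ELF3) were followed across 4 human prostate cell lines. These are the 10 rows with those symbols among the 26336 genes of the deposited count table, and each of the 10 passed the filter on low counts in each fit. The lines were RWPE, non-tumorigenic prostate epithelium, LNCaP, from a lymph node metastasis, and VCaP and MDAPCa2a, both from bone metastases. Cells were grown on plastic or on a mineral surface of amorphous calcium phosphate (ACP) that models bone mineral. Control medium was each line's own medium, which for RWPE was a serum-free keratinocyte medium with epidermal growth factor and pituitary extract and for the other lines held serum. Stripped medium had serum treated with charcoal and dextran, which removes steroid hormones. Androgen medium was stripped medium with androgen at a labelled 100 mM, named as DHT in the sample titles and as testosterone in the treatment labels. The 34 libraries made 17 groups: RWPE on both surfaces in control medium and on ACP with androgen, LNCaP and VCaP on both surfaces in control and in stripped medium and on ACP with androgen, and MDAPCa2a on plastic in control and stripped medium and on ACP in stripped and androgen medium. Each group had 2 libraries, but there were 3 for RWPE on ACP with androgen and 1, so no replicate, for stripped VCaP on plastic. MDAPCa2a was grown on protein-coated plastic, but without that protein on ACP. The labels do not say whether replicates were separate cultures, so p-values measure the spread between these libraries only.

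ETS factors share a winged-helix DNA-binding domain that recognises the core motif GGAA, and they differ in where they are made. ERG and ETS1 are known from endothelial and blood cells, ETV1, ETV4 and ETV5 form the PEA3 group that acts downstream of receptor tyrosine kinase signalling, and SPDEF, EHF and ELF3 are epithelial factors. In many prostate cancers, VCaP among them, a rearrangement on chromosome 21 joins the start of TMPRSS2, whose transcription is driven by the androgen receptor, to ERG. ETV1, ETV4 and ETV5 can be joined to other 5' partners in the same way, and LNCaP is known for a rearranged ETV1 locus. A count per gene does not tell reads of a fused transcript from those of an intact one.

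RefSeq promoter windows (GRCh38.p14) matched 6 of the 10 genes: ERG, ETV1, ETS2, SPDEF, EHF and ELF3. TMPRSS2, ETV4, ETV5 and ETS1 were not matched. The 3 windows printed here are shown because these ETS genes were highest in VCaP (ERG and SPDEF) or MDAPCa2a (ETV1), and give the 250 bases before 1 start of each gene, 5' to 3' on the gene's strand. Capitals mark the ETS core (GGAA, or TTCC on the other strand) and the androgen receptor half-site (AGAACA, or TGTTCT on the other strand). The ERG window is chr21:38660668-38660917, the ETV1 window is chr7:13990703-13990952 and the SPDEF window is chr6:34556330-34556579, each on the minus strand.
ERG: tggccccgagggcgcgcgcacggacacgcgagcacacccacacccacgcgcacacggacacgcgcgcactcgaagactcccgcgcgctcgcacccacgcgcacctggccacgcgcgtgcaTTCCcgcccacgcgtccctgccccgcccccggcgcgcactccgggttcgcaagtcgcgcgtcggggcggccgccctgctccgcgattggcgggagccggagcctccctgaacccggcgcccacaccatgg
ETV1: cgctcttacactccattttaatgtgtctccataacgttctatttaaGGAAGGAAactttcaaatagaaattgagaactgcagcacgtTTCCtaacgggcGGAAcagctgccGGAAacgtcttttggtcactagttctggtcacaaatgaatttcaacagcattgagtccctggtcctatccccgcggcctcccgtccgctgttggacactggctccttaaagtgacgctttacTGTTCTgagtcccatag
SPDEF: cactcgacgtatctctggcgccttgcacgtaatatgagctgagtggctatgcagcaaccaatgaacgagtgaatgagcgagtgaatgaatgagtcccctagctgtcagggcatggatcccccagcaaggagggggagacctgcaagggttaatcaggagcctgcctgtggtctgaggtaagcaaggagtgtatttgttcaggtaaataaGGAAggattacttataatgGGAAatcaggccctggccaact
The ERG window holds 1 ETS core and no half-site, the ETV1 window 5 cores and 1 half-site, and the SPDEF window 2 cores and no half-site. Among 35116 windows of this length, 92.7% hold a GGAA core on either strand, with a median of 3, and 12.4% hold an AGAACA half-site. Over all 16 windows of the 6 genes, the longer ETS motif CCGGAAG was absent, against 8.5% of all windows with it. The ETV1 half-site was in 2 of its 6 windows and in no window of the other genes. The ERG windows not printed held 1 to 4 cores. A TMPRSS2-ERG fusion transcript starts at TMPRSS2, so the printed ERG window is not its promoter.

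Libraries held 15.4 M to 44.8 M counts, and levels are counts per M counts (CPM, with M for 1000000) scaled by the trimmed mean of M-values over all libraries. Basal markers (KRT5, KRT14 and TP63) summed to 3348 to 15698 CPM in RWPE and to at most 37.2 CPM elsewhere. Luminal markers (KLK3, KLK2, KRT8, KRT18 and FOLH1) summed to 809 to 1456 CPM in RWPE, 3154 to 7707 in LNCaP, 4893 to 11973 in VCaP and 9524 to 16885 in MDAPCa2a. The 8 plastic control libraries stand apart: the labels give them as continuous culture and the rest as day 4, and FGG, the fibrinogen gamma chain, was at 1.41 to 2.84 CPM in those 8 while 25 of the other 26 had no FGG read. In comparisons with plastic control, surface or serum therefore cannot be told apart from that difference. A lower CPM in bulk RNA does not tell fewer expressing cells from less RNA per cell.

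**Figure D1:**
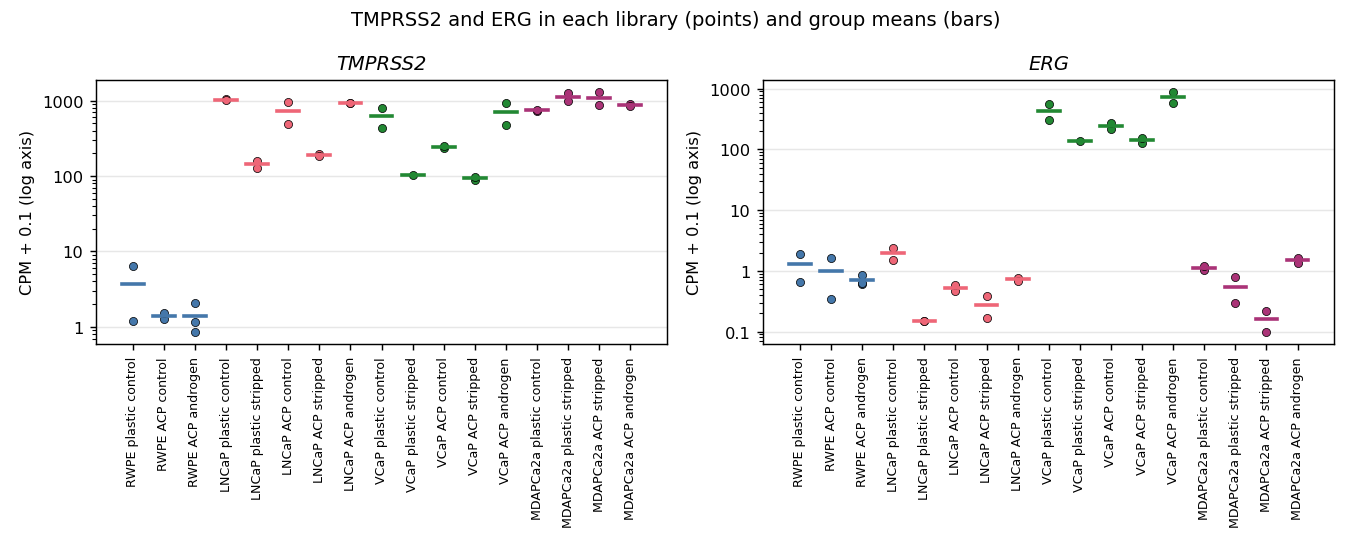
TMPRSS2 and ERG in each library, as CPM + 0.1 on a log axis, with the 17 groups along the x axis. Each point is 1 library and each bar is the group mean. TMPRSS2 was at or above 89.8 CPM in each library of the 3 cancer lines, and ERG was at 126 to 882 CPM in VCaP and at most 2.32 CPM in the other lines.

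TMPRSS2 was a transcript of the 3 cancer lines. In RWPE it was at 1.09 and 6.22 CPM on plastic in control medium, 1.16 and 1.41 on ACP in control medium, and 2.00, 1.06 and 0.767 on ACP with androgen. In LNCaP it was at 1056 and 1011 CPM on plastic in control medium, 159.8 and 129 on plastic in stripped serum, 493 and 963 on ACP in control medium, 196 and 185 on ACP in stripped serum, and 918 and 934 on ACP with androgen. The LNCaP libraries in stripped serum lay below each of the other LNCaP libraries on both surfaces. In VCaP TMPRSS2 was at 802 and 435 CPM on plastic in control medium, 102 on plastic in stripped serum, 237 and 252 on ACP in control medium, 89.8 and 96.6 on ACP in stripped serum, and 926 and 475 on ACP with androgen. The VCaP groups in stripped serum were again the lowest, ACP in control medium lay between, and the plastic control and androgen libraries overlapped. In MDAPCa2a it was at 740.2 and 749 CPM on plastic in control medium, 987 and 1262 on plastic in stripped serum, 1302 and 874 on ACP in stripped serum, and 909 and 854 on ACP with androgen. Here the 2 plastic control libraries were the lowest, and the stripped and androgen groups overlapped on ACP. Of the 16 neighbouring pairs in the order of the 17 group means, 7 overlapped in their libraries. RWPE plastic control replicate 2 was the highest RWPE library, with 246 TMPRSS2 reads against 41 in replicate 1. The same library was also higher for the luminal KLK2 (528 against 36 reads) and KLK3 (754 against 290), and for ERG (71 against 21) and SPDEF (86 against 18). What these genes share with the TMPRSS2 value in that library was not tested.

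ERG was a transcript of VCaP. In VCaP it was at 559.9 and 303 CPM on plastic in control medium, 138 on plastic in stripped serum, 219 and 268 on ACP in control medium, 126 and 157 on ACP in stripped serum, and 882 and 574 on ACP with androgen. Androgen libraries were the highest, stripped libraries the lowest, and these groups did not overlap. Outside VCaP, ERG ranged over 0.238 to 1.80 CPM in RWPE (median 0.557), 0.0510 to 2.32 CPM in LNCaP (median 0.416) and 0 to 1.55 CPM in MDAPCa2a (median 0.804). The highest of these libraries held 105 ERG reads, and the median of each line was at most 0.3% of the VCaP median. Of the 16 neighbouring pairs in the order of group means 11 overlapped, most of them among the low groups. Endothelial cells normally hold ERG, and PECAM1, VWF and CDH5 together summed to at most 3.66 CPM in the VCaP libraries without androgen and to 12.1 CPM in both androgen libraries, where ERG was highest too, with CDH5 at 0 reads in the 7 VCaP libraries outside plastic control. In LNCaP the same markers summed to 12.3 to 36.6 CPM, with ERG at most 2.32 CPM. The part of the endothelial markers in the ERG levels was not tested.

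In VCaP, ERG and TMPRSS2 moved in parallel across the 9 libraries, with a Pearson correlation of 0.96 between their log2(CPM + 1) levels, or 0.98 over the 7 libraries outside plastic control. The points share line, libraries and scaling, so this is a description. For comparison, ERG and SPDEF gave 0.72 and 0.79 over the same libraries. Raw ERG counts per TMPRSS2 count were 0.698 and 0.695 on plastic in control medium, 1.35 on plastic in stripped serum, 0.922 and 1.06 on ACP in control medium, 1.41 and 1.62 on ACP in stripped serum, and 0.953 and 1.21 with androgen. The ratio was at least 1.35 in the 3 stripped libraries and at most 1.21 in the other 6, so the stripped libraries held relatively more ERG reads. This quotient does not correct for transcript length.

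**Figure D2:**
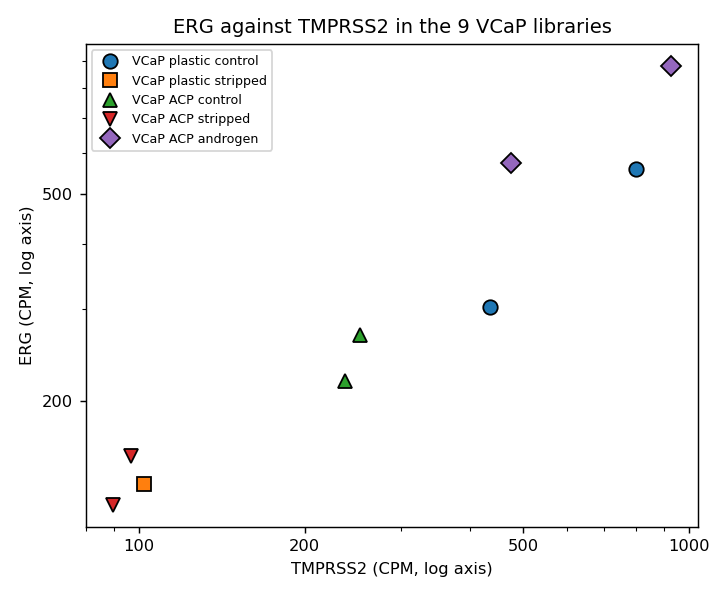
ERG against TMPRSS2 in the 9 VCaP libraries, both as CPM on log axes, with a colour per group. The points run along a line from the stripped libraries at the lower left, TMPRSS2 89.8 to 102 CPM, to the androgen and plastic control libraries at the upper right.

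Of 6 genes linked to ERG in prostate tumours, 4 had their highest group mean in VCaP, as did 28.4% of 13218 genes with a group mean of at least 5 CPM. Among these, group means there were 189 to 595 CPM for the secreted protein CRISP3, 51.2 to 249 for the phospholipase PLA1A and 63.5 to 87.2 for the Tudor domain gene TDRD1. In the other lines the highest group means of these 3 genes were 6.26, 6.17 and 0.826 CPM. The 2 highest in RWPE were the plasminogen activators PLAU, with 64.0 to 120.1 CPM there and at most 1.07 in VCaP, and PLAT, with 4.51 to 8.82 CPM there and up to 8.22 in VCaP. Of 15 genes between ERG and TMPRSS2 on chromosome 21 with a group mean of at least 5 CPM, 8 were highest in VCaP, 4 in LNCaP and 3 in RWPE. Those highest in VCaP included genes with group means of 59.3 to 191 CPM for the protease BACE2, 26.8 to 62.6 for FAM3B and 8.49 to 26.1 for PCP4, against at most 40.3, 0.705 and 0.153 CPM in the other lines. The proteasome assembly gene PSMG1 went the other way, at 20.3 to 38.1 CPM in VCaP and 73.5 to 145.7 in RWPE, and the interferon-induced MX1 was at 2.41 to 31.3 CPM in VCaP and 17.4 to 89.2 in RWPE. ETS2 lies in that interval too and was detected in each VCaP library.

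The PEA3 group split by line. ETV1 was at 1213 and 1038 CPM on plastic in control medium, 850.1 and 1036 on plastic in stripped serum, 1132 and 1039.7 on ACP in stripped serum, and 1021 and 927 on ACP with androgen in MDAPCa2a, which held the highest levels. In LNCaP it was at 313 and 276 CPM on plastic in control medium, 111 and 178 on plastic in stripped serum, 256 and 277 on ACP in control medium, 109 and 214 on ACP in stripped serum, and 234 and 348 on ACP with androgen. It ranged over 2.34 to 8.55 CPM in RWPE (median 5.07) and 2.09 to 3.25 CPM in VCaP (median 2.50), so each MDAPCa2a library lay above each LNCaP library and each LNCaP library above the 2 remaining lines. ETV4 was at 56.7 and 66.1 CPM on plastic in control medium, 26.1 and 20.5 on ACP in control medium, and 25.4, 30.4 and 42.9 on ACP with androgen in RWPE. In MDAPCa2a it was at 89.8 and 89.5 CPM on plastic in control medium, 50.3 and 33.1 on plastic in stripped serum, 20.9 and 28.2 on ACP in stripped serum, and 28.2 and 33.8 on ACP with androgen. In both lines the plastic control libraries were the highest and overlapped with no other group of the line. ETV4 reached at most 1.14 CPM in LNCaP. In VCaP it was at 0.642 and 0.699 CPM on plastic in control medium, 0.240 on plastic in stripped serum, 0.141 and 0.389 on ACP in control medium, 0.390 and 0.779 on ACP in stripped serum, and 2.77 and 3.15 on ACP with androgen, the androgen libraries with 64 and 72 reads and the stripped ones on ACP with 8 and 19.

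ETV5, the third member of the group, followed ETV4. In RWPE it was at 70.3 and 63.0 CPM on plastic in control medium, 23.0 and 22.8 on ACP in control medium, and 30.6, 31.4 and 54.6 on ACP with androgen. In MDAPCa2a it was at 55.4 and 56.5 CPM on plastic in control medium, 42.3 and 38.5 on plastic in stripped serum, 33.2 and 47.7 on ACP in stripped serum, and 40.0 and 46.1 on ACP with androgen. RWPE plastic control again lay above the other RWPE groups, and the same held for plastic control in MDAPCa2a. ETV5 was at most 2.97 CPM in LNCaP and 1.84 CPM in VCaP. MDAPCa2a was thus the line with all 3 PEA3 genes at 20.9 CPM or more in each library, while LNCaP had ETV1 alone and VCaP had none of them at that level.

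ETS1 and ETS2, related factors that respond to mitogenic signalling, were both highest in RWPE. ETS1 was at 81.6 and 72.3 CPM on plastic in control medium, 32.7 and 36.7 on ACP in control medium, and 15.5, 28.5 and 29.9 on ACP with androgen in that line, highest on plastic, with no overlap between plastic and ACP. It ranged over 2.82 to 8.93 CPM in VCaP (median 3.41), 0.771 to 2.66 CPM in LNCaP (median 1.72) and 0 to 0.993 CPM in MDAPCa2a (median 0.289). ETS1 on MDAPCa2a plastic rested on 26 and 36 reads in control medium and 4 and 1 in stripped serum. ETS2 was at 122 and 176 CPM on plastic in control medium, 174 and 171 on ACP in control medium, and 113, 127 and 151 on ACP with androgen in RWPE, where plastic overlapped with both ACP groups and the ACP groups did not overlap each other. In MDAPCa2a it was at 102 and 101 CPM on plastic in control medium, 88.7 and 65.6 on plastic in stripped serum, 61.4 and 75.2 on ACP in stripped serum, and 56.8 and 65.8 on ACP with androgen, highest in the plastic control libraries. The lowest ETS2 levels were those of LNCaP (7.74 to 18.5 CPM) and VCaP (12.1 to 31.9 CPM), whose ranges overlapped.

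**Figure D3:**
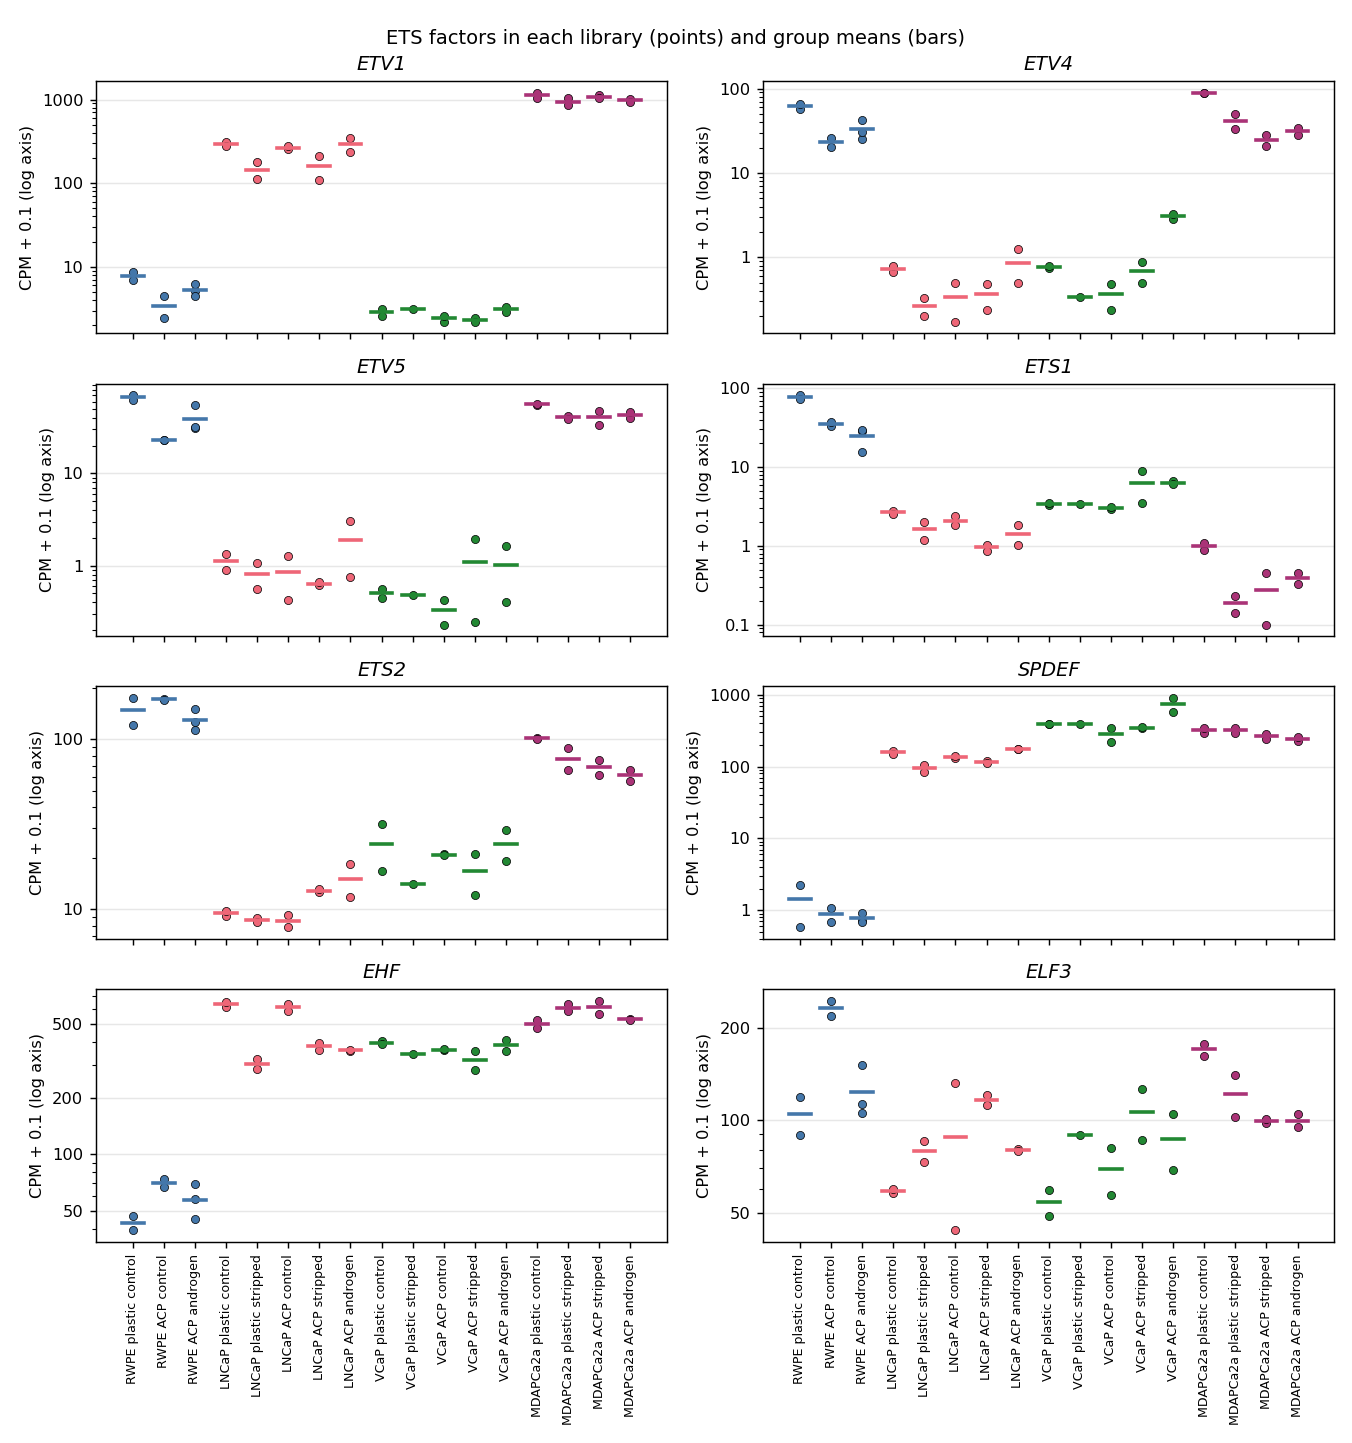
ETV1, ETV4, ETV5, ETS1, ETS2, SPDEF, EHF and ELF3 in each library, as CPM + 0.1 on log axes, 1 panel per gene and 1 colour per line, with points for libraries and bars for group means. ETV1 stands out in MDAPCa2a and LNCaP, ETS1 and ETS2 in RWPE, and SPDEF is low in RWPE, while ELF3 covers a 4.29-fold range of group means.

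The 3 epithelial factors differed in how far they set the lines apart. SPDEF, a luminal and secretory-cell factor, ranged over only 0.478 to 2.17 CPM in RWPE (median 0.626) but was at 392 and 389 CPM on plastic in control medium, 392 on plastic in stripped serum, 221 and 345 on ACP in control medium, 342 and 350.1 on ACP in stripped serum, and 902 and 579.9 on ACP with androgen in VCaP. In LNCaP it was at 167 and 149.6 CPM on plastic in control medium, 105 and 84.6 on plastic in stripped serum, 132 and 141 on ACP in control medium, 121 and 111 on ACP in stripped serum, and 174 and 174 on ACP with androgen. In MDAPCa2a SPDEF was at 292 and 348 CPM on plastic in control medium, 344 and 292 on plastic in stripped serum, 281 and 243 on ACP in stripped serum, and 227 and 257 on ACP with androgen. The VCaP androgen libraries were the highest of all 34, each cancer-line library lay above each RWPE library, and the LNCaP and MDAPCa2a ranges did not overlap. EHF, a factor of glandular epithelium, was at 616 and 650.2 CPM on plastic in control medium, 286 and 325 on plastic in stripped serum, 635 and 585 on ACP in control medium, 363 and 393 on ACP in stripped serum, and 359 and 359.8 on ACP with androgen in LNCaP. The 4 LNCaP control-medium libraries lay above the other 6. EHF ranged over 39.3 to 73.5 CPM in RWPE (median 57.5), 283 to 408 CPM in VCaP (median 361) and 473 to 664 CPM in MDAPCa2a (median 547), and RWPE overlapped with no other line. ELF3, a factor inducible by inflammatory signals, was found in each line, and 13 of its 16 neighbouring pairs overlapped. Its highest group was RWPE on ACP in control medium (245 and 218 CPM) and its lowest VCaP on plastic in control medium (48.7 and 59.3 CPM).

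Per kilobase of exon, with the exons of all annotated transcripts of a gene merged, the leading ETS gene of the 9 differed between lines. The order depends on this length: in CPM alone, ETV1 was highest of the 9 in each MDAPCa2a group (group means 943 to 1125). ETS2 led in the 3 RWPE groups (group means of 36.5, 42.3 and 32.0 CPM per kb). EHF led in 4 LNCaP groups, with 160.1 CPM per kb on plastic in control medium, and on ACP with androgen EHF (90.9 CPM per kb) and SPDEF (90.8) overlapped in their libraries. SPDEF led in the 5 VCaP groups, with 387 CPM per kb with androgen, where ERG was second at 135. In MDAPCa2a on plastic SPDEF led at 167 CPM per kb in control medium, next to ETV1 at 146, and on ACP EHF led at 155 in stripped serum and 133 with androgen, but in each of the 4 MDAPCa2a groups the libraries of the leading and the next gene overlapped.

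**Figure D4:**
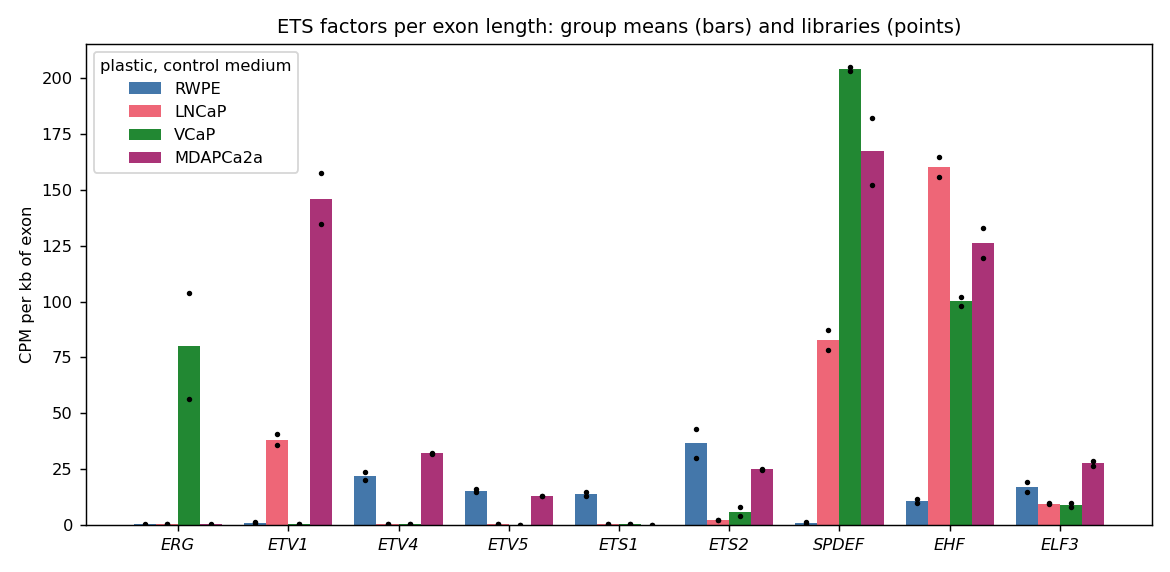
Level of the 9 ETS genes per kb of exon on plastic in control medium, by gene, on a linear axis. Bars are group means, with 1 colour per line, and points are libraries. The tallest bar is ETS2 in RWPE, EHF in LNCaP and SPDEF in VCaP and in MDAPCa2a. In MDAPCa2a the ETV1 and SPDEF libraries overlap. ERG in VCaP stands at 80.0 CPM per kb.

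Lines were compared on plastic in control medium with edgeR's quasi-likelihood test and Benjamini-Hochberg adjustment over 17323 genes, where "called" means an adjusted p under 0.05. Control medium was each line's own, and serum-free with epidermal growth factor for RWPE. Line and medium therefore cannot be told apart in these pairs. Between LNCaP and RWPE, 9 of the 10 genes were called, as were 57.4% of all genes. VCaP and RWPE gave 10 (all genes 62.4%), MDAPCa2a and RWPE 5 (56.7%), VCaP and LNCaP 5 (52.6%), MDAPCa2a and LNCaP 7 (40.2%) and VCaP and MDAPCa2a 7 (52.4%). A called difference was thus common among all genes, and the sizes carry the description. ETV1 was 147-fold higher in MDAPCa2a than in RWPE (log2 7.20 ± 0.35 SE, adjusted p = 2.55e-14) and 3.83-fold higher than in LNCaP (log2 1.94 ± 0.28 SE, adjusted p = 3.71e-06). In VCaP it was lower than in RWPE (log2 -1.48 ± 0.30 SE, adjusted p = 1.46e-04). SPDEF was 292-fold higher in VCaP than in RWPE (log2 8.19 ± 0.42 SE, adjusted p = 6.62e-14). EHF was 14.8-fold higher in LNCaP than in RWPE (log2 3.88 ± 0.19 SE, adjusted p = 3.71e-14) and ETS2 15.8-fold lower (log2 -3.99 ± 0.31 SE, adjusted p = 7.55e-11). ETV4 was 142-fold higher in MDAPCa2a than in LNCaP (log2 7.15 ± 0.45 SE, adjusted p = 4.29e-12). Its difference from RWPE did not pass the test (log2 0.55 ± 0.33 SE, adjusted p = 0.166).

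On ACP with androgen, in other libraries, the same pairs of lines gave 8 of 10 (66.9% of all genes), 9 of 10 (67.4% of all genes), 6 of 10 (64% of all genes), 6 of 10 (56% of all genes), 6 of 10 (45.3% of all genes), 8 of 10 (51.4% of all genes), in the same order. The genes called in both settings with the same direction were 8 for LNCaP against RWPE, 9 for VCaP against RWPE, 5 for MDAPCa2a against RWPE, 4 for VCaP against LNCaP, 5 for MDAPCa2a against LNCaP and 6 for VCaP against MDAPCa2a. The share of all genes called in both settings was not computed. With the large shares in each setting, these counts are not read as a result particular to the 10. The ELF3 calls rested on single libraries. On plastic its difference between LNCaP and RWPE (log2 -0.83 ± 0.32 SE, adjusted p = 0.0273) was lost without RWPE replicate 2 or either LNCaP library, and that between VCaP and RWPE (log2 -0.95 ± 0.32 SE, adjusted p = 0.0113) without RWPE replicate 2 or VCaP replicate 1.

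On plastic, TMPRSS2 was lower in stripped serum than in control medium in LNCaP, and the 1 stripped VCaP library lay below both control libraries. In both lines the control libraries are the continuous cultures, so serum cannot be told apart from that difference. LNCaP had 4 of the 10 genes lower and none higher, where 9.45% of 14656 genes were called (4.84% lower), and the median log2 change of the 10 was -0.85 against -0.01 over all genes. TMPRSS2 fell 6.92-fold (log2 -2.79 ± 0.25 SE, adjusted p = 1.35e-04), EHF 2.00-fold (log2 SE 0.14, adjusted p = 0.00186) and SPDEF 1.62-fold (log2 -0.69 ± 0.13 SE, adjusted p = 0.00833). ERG, barely present, went from 68 and 105 reads to 2 and 1, a ratio of 36.5 with a 95% counting interval of 12.3 to 179. ETV1 gave log2 -0.97 ± 0.32 SE, adjusted p = 0.0838 and was not called. The SPDEF call was lost without either control library and in the fit of all lines. In VCaP TMPRSS2 was 5.89-fold lower (log2 -2.56 ± 0.48 SE, adjusted p = 0.0476), the 1 gene of 10 called (all genes 0.89%, medians -0.09 and 0.01), and that call was lost without plastic control replicate 1, under another scaling (RLE) and with a replicate block (adjusted p = 0.0615 in edgeR). ERG there was 3.03-fold lower and not called (log2 SE 0.42, adjusted p = 0.0829). The stripped side is 1 library, whose spread is assumed to be that of the other groups, so this call has no replicate behind it.

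In MDAPCa2a on plastic the 1 gene of 10 called was ETV4, 2.10-fold lower in stripped serum (log2 -1.07 ± 0.22 SE, adjusted p = 0.0484), where 1.58% of 13626 genes were called (medians -0.40 and -0.01). The call was lost without any 1 of the 4 libraries and in the fit of all lines, which called another of the 10 instead. KRT14, 1 of the 3 basal markers, rose in the same comparison, with basal sums of 17.7 to 19.7 CPM in control medium and 34.9 to 37.2 in stripped serum, and its part was not tested. TMPRSS2 gave log2 0.63 ± 0.24 SE, adjusted p = 0.244, with both stripped libraries above both control libraries. The change in TMPRSS2 differed between lines: MDAPCa2a minus LNCaP was log2 3.43 ± 0.62 SE, adjusted p = 0.00211, and MDAPCa2a minus VCaP was log2 3.19 ± 0.73 SE, adjusted p = 0.0151. EHF also differed between MDAPCa2a and LNCaP (log2 1.33 ± 0.24 SE, adjusted p = 0.00208), and ETS1 between MDAPCa2a and VCaP (log2 -3.22 ± 0.90 SE, adjusted p = 0.0476). Of all genes, 1.81% were called in the first of these tests and 3.12% in the second. Between VCaP and LNCaP no gene of the 10 was called (4.67% of all genes, 3 of 10 at an unadjusted p under 0.05 in edgeR and 1 called by DESeq2). The 2 calls against VCaP were lost without single plastic control libraries: MDAPCa2a replicate 1 for TMPRSS2, and any of the 4 for ETS1, whose call was also lost without either stripped MDAPCa2a library. The calls against LNCaP held without each of their 8 libraries in turn. Contrasts with VCaP here rest on 1 stripped VCaP library, which has no replicate and could not be left out.

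On ACP, where neither side is a continuous culture, LNCaP had 2 of the 10 genes lower in stripped serum than in control medium (all genes 5.37%, lower 2.09%, medians -0.59 and -0.01). TMPRSS2 fell 3.86-fold (log2 -1.95 ± 0.24 SE, adjusted p = 0.00117) and EHF 1.64-fold (log2 -0.71 ± 0.14 SE, adjusted p = 0.0163). The EHF call was lost without control replicate 1 or either stripped library. DSCAM-AS1, a noncoding RNA gene between ERG and TMPRSS2, was at 107 to 233 CPM in the 4 LNCaP libraries on ACP in stripped or androgen medium and at 0.282 to 1.68 CPM in the other 6, so it separates the same libraries. In LNCaP on ACP, stripped or androgen medium against control medium therefore cannot be told apart from what sets these 4 libraries apart, while androgen against stripped medium has them on both sides. VWF, 1 of the 3 endothelial markers, also rose here, with endothelial sums of 12.3 to 15.6 CPM in control medium and 30.3 to 36.6 in stripped serum. The part of DSCAM-AS1 and VWF in these results was not tested. Whether reads were counted by strand is not given in the sources used here. In VCaP on ACP 0 of 10 were called by edgeR (all genes 0.82%), with 4 at an unadjusted p under 0.05 and 1 called by DESeq2, and TMPRSS2 gave log2 -1.37 ± 0.35 SE, adjusted p = 0.0899. Both of its stripped libraries lay below both control libraries. Between VCaP and LNCaP the change on ACP gave no call among the 10 in edgeR (4 at an unadjusted p under 0.05, 1 called by DESeq2, 0.595% of all genes called). The change in LNCaP gave no called difference between surfaces in edgeR (3 at an unadjusted p under 0.05, 0 called by DESeq2, 0.307% of all genes called).

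Adding androgen to stripped serum on ACP raised TMPRSS2 and SPDEF in LNCaP and VCaP, and in VCaP also ERG and ETV4. In LNCaP 2 of 10 were higher and none lower, with 7.73% of all genes called (3.77% higher) and medians of 0.73 for the 10 and -0.01 for all genes. TMPRSS2 rose 4.82-fold (log2 2.27 ± 0.24 SE, adjusted p = 4.66e-04) and SPDEF 1.48-fold (log2 0.57 ± 0.13 SE, adjusted p = 0.0262), the latter lost in the fit of all lines and without either stripped library or androgen replicate 1. In VCaP 4 of 10 were higher and none lower (17.5% of all genes called, 8.67% higher and 8.8% lower, medians 0.50 and -0.03). TMPRSS2 rose 7.51-fold (log2 2.91 ± 0.37 SE, adjusted p = 0.00171), ERG 5.14-fold (log2 2.36 ± 0.33 SE, adjusted p = 0.00274), ETV4 by log2 2.32 ± 0.59 SE, adjusted p = 0.0261, and SPDEF 2.14-fold (log2 1.10 ± 0.27 SE, adjusted p = 0.0218). The ETV4 call was lost without stripped replicate 1 or either androgen library, and the SPDEF call without either stripped library or androgen replicate 1. The TMPRSS2 and ERG calls in VCaP and the TMPRSS2 call in LNCaP held without each single library. ETV1 in LNCaP gave log2 0.83 ± 0.32 SE, adjusted p = 0.139, with 109 and 214 CPM against 234 and 348 CPM.

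Markers of other cells moved with androgen in VCaP. Of the 3 endothelial markers 2 rose, PECAM1 (log2 4.59 ± 0.95 SE, adjusted p = 0.0114) and VWF (log2 2.36 ± 0.47 SE, adjusted p = 0.0104), while CDH5 was at 0 reads on both sides. Their sum went from 0.683 to 1.43 CPM in the stripped libraries to 12.1 CPM in both androgen libraries. Of 3 blood markers 1 rose, CD53, with 10 and 4 reads against none, and of 4 fibroblast markers 2 fell, PDGFRB and DCN, both under 1.34 CPM on average. KRT14, a basal marker, rose from a mean of 3.30 to 11.3 CPM. The part of these markers in the VCaP results was not tested. In MDAPCa2a androgen gave 0 calls among the 10 and among all 13626 genes (0%) in edgeR, with 1 of 10 and 236 of all genes at an unadjusted p under 0.05, and 0 of the 10 by DESeq2. The 1 was ERG, with 52 reads with androgen and 2 without, a ratio of 23.0 with a 95% counting interval of 6.05 to 195. TMPRSS2 gave log2 -0.35 ± 0.24 SE, adjusted p = 0.968, and the medians were -0.10 and -0.01.

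The androgen effect on TMPRSS2 was larger in VCaP than in MDAPCa2a (log2 3.21 ± 0.62 SE, adjusted p = 0.00244, all genes called 7.86%) and larger in LNCaP than in MDAPCa2a (log2 2.59 ± 0.62 SE, adjusted p = 0.0354, all genes 1.12%). The second of these was lost without 6 of the 8 libraries, one at a time: both LNCaP stripped libraries, LNCaP androgen replicate 1, MDAPCa2a stripped replicate 1 and both MDAPCa2a androgen libraries. ETV4 differed between VCaP and MDAPCa2a (log2 1.97 ± 0.59 SE, adjusted p = 0.0379), a call lost without VCaP stripped replicate 1, MDAPCa2a stripped replicate 2 or any of the 4 androgen libraries. Between VCaP and LNCaP none of the 10 was called in edgeR, 0 had an unadjusted p under 0.05 and DESeq2 called 0, although 10.9% of all genes were called. The reference androgen targets KLK3, KLK2 and FKBP5 rose, 3 of 3, in LNCaP and in VCaP. In MDAPCa2a 0 of 3 passed the test, as did 0% of all genes. KLK3 group means there ran from 5452 CPM on plastic in control medium to 9351 on ACP in stripped serum. On plastic all 3 had higher group means in stripped than in control MDAPCa2a medium, with control libraries from continuous culture. Of these FKBP5 was called (log2 2.10 ± 0.21 SE, adjusted p = 0.00719 in edgeR, all genes 1.58%).

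**Figure D5:**
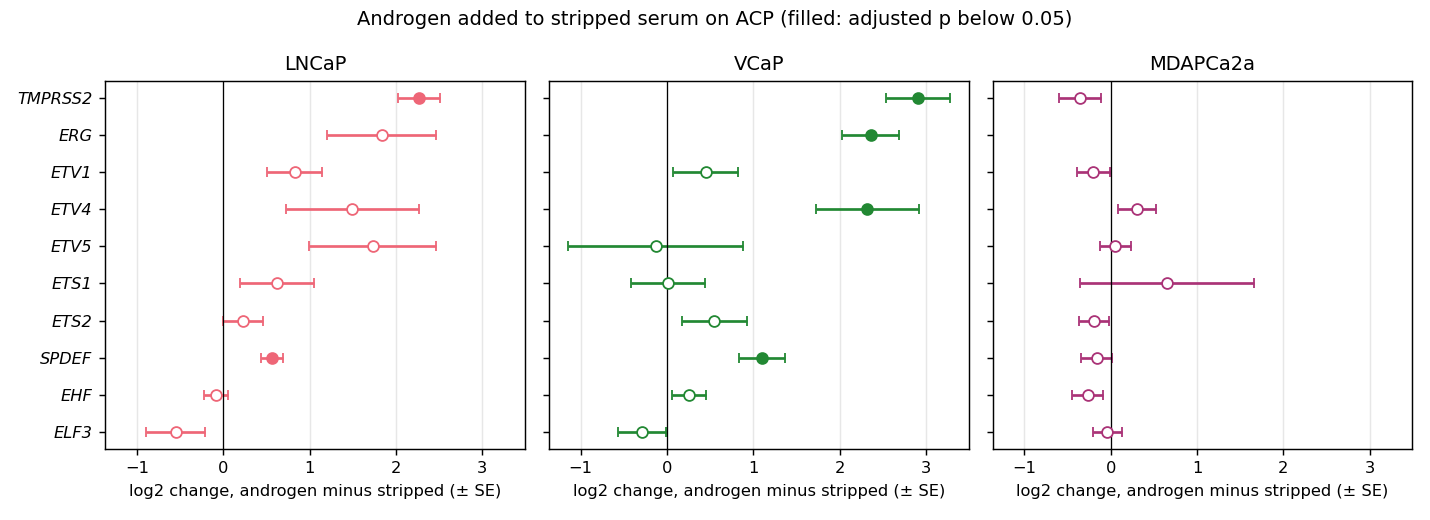
Log2 change with androgen against stripped serum on ACP for the 10 genes in LNCaP, VCaP and MDAPCa2a, with bars of 1 SE and filled points for an adjusted p under 0.05. TMPRSS2 and SPDEF are filled in LNCaP and in VCaP, and ERG and ETV4 in VCaP. No point is filled in MDAPCa2a, where ERG is not drawn because its stripped group held 2 reads.

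Androgen against control medium on ACP changes both the serum and the androgen, and its androgen libraries are those of the preceding comparison. In VCaP 4 of 10 were called higher and none lower (all genes 5.99%, higher 3.71%, medians 1.26 and 0.00). TMPRSS2 gave log2 1.54 ± 0.35 SE, adjusted p = 0.0330, ERG 3.04-fold (log2 SE 0.32, adjusted p = 0.0221), SPDEF log2 1.41 ± 0.27 SE, adjusted p = 0.0186 and ETV4 log2 3.47 ± 0.65 SE, adjusted p = 0.0168, the last from 3 and 9 reads. Each was lost without either control library or androgen replicate 1, and ETV4 also without androgen replicate 2, and TMPRSS2 was 0.98 on the log2 scale without androgen replicate 1. In LNCaP EHF was lower (log2 -0.80 ± 0.14 SE, adjusted p = 0.00551) and ETS2 higher (log2 0.81 ± 0.23 SE, adjusted p = 0.0397), with 15.1% of all genes called and medians of 0.32 and -0.01. DSCAM-AS1 separates these LNCaP groups as well, so medium cannot be told apart from that difference here either. The ETS2 call was lost without either control library or androgen replicate 1, without which the log2 value was 0.42, and in the fit of all lines. The direction of ELF3 rested on 1 library: it gave log2 -0.16 ± 0.34 SE, adjusted p = 0.792, with control libraries at 43.9 and 132 CPM, and 0.82 on the log2 scale without control replicate 2. TMPRSS2 in LNCaP gave log2 0.32 ± 0.23 SE, adjusted p = 0.374, and its control libraries were 493 and 963 CPM.

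In RWPE, ETV5 was higher with androgen than in control medium on ACP (log2 0.78 ± 0.24 SE, adjusted p = 0.0466) and ELF3 lower (log2 -0.89 ± 0.21 SE, adjusted p = 0.0215), among 19.1% of 14293 genes called (medians -0.21 and -0.02). RWPE control medium was serum-free with epidermal growth factor and pituitary extract, so androgen cannot be told apart from the other changes of medium here. Each call was lost without either control library, ELF3 also without androgen replicate 1 and ETV5 in the fit of all lines, and ETV5 was 0.47 on the log2 scale without androgen replicate 3. Of the 3 basal markers KRT5 and TP63 fell in the same comparison, with a sum of 12537 to 15698 CPM in control medium and 3348 to 10954 CPM with androgen, and their part was not tested. TMPRSS2 was between 0.767 and 2.00 CPM in the RWPE androgen libraries. The effect on EHF was higher in VCaP than in LNCaP (log2 0.84 ± 0.24 SE, adjusted p = 0.0415), that on ETV4 higher in VCaP than in RWPE (log2 2.94 ± 0.63 SE, adjusted p = 0.00576), and that on ETS2 higher in LNCaP than in RWPE (log2 1.24 ± 0.38 SE, adjusted p = 0.0246). Of all genes 4.96%, 8.6% and 18.6% were called in these 3 tests. DSCAM-AS1 separates the LNCaP groups used for EHF and ETS2, so medium cannot be told apart from that difference there. The ETV4 and ETS2 differences also carry the change from the serum-free RWPE control medium. The EHF call was lost without any 1 of 7 of its 8 libraries (it held without VCaP androgen replicate 1) and under RLE scaling. The ETS2 call was lost without any of the 4 control libraries or replicate 1 of either androgen group, and the ETV4 call without VCaP control replicate 1.

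ACP against plastic was compared in control medium in 3 lines. In RWPE, ETV4, ETV5 and ETS1 were lower on ACP, by 2.59-fold (log2 -1.37 ± 0.24 SE, adjusted p = 0.0166), 2.86-fold (log2 -1.52 ± 0.26 SE, adjusted p = 0.0163) and 2.17-fold (log2 -1.12 ± 0.27 SE, adjusted p = 0.0473), and ELF3 was 2.25-fold higher (log2 1.17 ± 0.23 SE, adjusted p = 0.0246). These were 4 of 10 against 4.16% of 14293 genes, with medians of -0.94 and 0.03. ETV4, ETS1 and ELF3 lost their call without any 1 of the 4 libraries, and ETV5 without plastic replicate 1 or either ACP library. ETV5 and ETS1 were also not called in the fit of all lines, where at least 1 other of the 10 gained a call. ETV1 gave log2 -1.17 ± 0.31 SE, adjusted p = 0.0634 and EHF log2 0.74 ± 0.22 SE, adjusted p = 0.0833. In LNCaP the 1 call was ERG (log2 -2.07 ± 0.52 SE, adjusted p = 0.0295), at 68 and 105 reads on plastic and 10 and 13 on ACP, where 12.6% of all genes were called. It was lost without either plastic library or ACP replicate 1. In VCaP 0 of 10 were called in edgeR, with 2 at an unadjusted p under 0.05 and 1 called by DESeq2 (0.0448% of all genes).

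In stripped serum the surface gave no call among the 10 in edgeR or DESeq2. In LNCaP 3 had an unadjusted p under 0.05 (6.12% of all genes called, with DSCAM-AS1 on 1 side only), in VCaP 0 (0%, 511 genes at an unadjusted p under 0.05) and in MDAPCa2a 2 (0.00734%). TMPRSS2 gave log2 0.44 ± 0.23 SE, adjusted p = 0.265 in LNCaP and log2 0.05 ± 0.24 SE, adjusted p = 0.931 in MDAPCa2a. Between lines none of the 10 had a called difference of the surface effect in control medium, with 0.0231%, 0.185% and 0.156% of all genes called for VCaP minus LNCaP, VCaP minus RWPE and LNCaP minus RWPE, and 0, 2 and 2 of the 10 at an unadjusted p under 0.05 in edgeR, 0 by DESeq2. The RWPE drop of ETV4, ETV5 and ETS1 was therefore not shown to be particular to RWPE.

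Among 19 further ETS genes, androgen raised 1 of 13 tested in LNCaP, changed 3 of 15 in VCaP (1 higher, 2 lower) and 0 of 12 in MDAPCa2a, beside the shares of all genes given above. The LNCaP gene was ELK4, a partner of serum response factor (log2 1.23 ± 0.22 SE, adjusted p = 0.00779), which was 2.00-fold lower in stripped than in control medium on ACP (log2 SE 0.22, adjusted p = 0.0221). In VCaP the repressor ETV6 rose (log2 1.29 ± 0.28 SE, adjusted p = 0.0136) while FEV, a close relative of ERG, fell (log2 -1.87 ± 0.44 SE, adjusted p = 0.0187), as did ELK3 (log2 -0.85 ± 0.26 SE, adjusted p = 0.0481). FEV had group means of 3.66 to 16.3 CPM in VCaP and at most 0.337 CPM in another line. GABPA, an ETS gene of chromosome 21, was at 74.9 to 82.7 CPM in VCaP and reached 51.0 CPM elsewhere.

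Of 8 genes known as 5' fusion partners of ETS genes, 3 rose with androgen in LNCaP and 4 in VCaP, and 4 were lower in stripped serum on plastic in LNCaP. Of all genes, 3.77%, 8.67% and 4.84% were called in those directions. SLC45A3, a prostate membrane transporter, rose from a mean of 66.7 to 603 CPM in LNCaP (log2 3.16 ± 0.18 SE, adjusted p = 7.28e-06). ACSL3, a fatty acid activating enzyme, rose in VCaP (log2 2.82 ± 0.34 SE, adjusted p = 0.00140) and in LNCaP (log2 1.88 ± 0.25 SE, adjusted p = 0.00143). The median log2 change of the 8 was 0.57 in LNCaP and 0.75 in VCaP, against -0.01 and -0.03 over all genes. Of the 6 genes linked to ERG, 3 rose with androgen in VCaP (8.67% of all genes), among them PLA1A (log2 1.37 ± 0.36 SE, adjusted p = 0.0281). Of 19 tested genes between ERG and TMPRSS2, 4 fell with androgen in VCaP (8.8% of all genes) and 0 rose, B3GALT5, a glycosyltransferase (log2 -2.37 ± 0.42 SE, adjusted p = 0.00620), and DSCAM, a cell adhesion gene (log2 -2.93 ± 0.61 SE, adjusted p = 0.0120), among those that fell.

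By likeness of log2 group means over the 17 groups, among 13217 genes with a group mean of at least 5 CPM, the nearest gene to TMPRSS2 was LRIG1, an inhibitor of ErbB receptors (Pearson correlation 0.97). NPY, the neuropeptide Y gene, was nearest to ERG (0.995), with DCDC2 close behind (0.994). DUSP6, an ERK phosphatase, was nearest to ETV4 (0.98) and SLC44A4, a choline-transporter-like protein, to SPDEF (0.99). ETV5 was among the 3 nearest genes of ETV4 (0.98). CYP1A1, a detoxifying enzyme, was nearest to ELF3, at only 0.81. The groups share lines, so most of this likeness is a likeness of levels across 4 lines. Without the plastic control groups, between 1 and 3 of the 3 nearest genes remained for each of the 10.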

How the data were processed

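RNA of 4 prostate cell lines was sequenced from poly(A)-selected libraries, per the labels' protocols. The authors deposited whole-number read counts per gene symbol for 34 libraries, and the submitters' processing notes name STAR, HTSeq and hg19 without versions. No source used here states the annotation or whether strand was used. Libraries held 15.4 M to 44.8 M counts (M for 1000000), and counting intervals cover counting error only.

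Counts were tested with edgeR 4.0.16 (quasi-likelihood; TMM; low counts removed by filterByExpr at min.count 10), limma 3.58.1 and R 4.3.3. Genes with a Benjamini-Hochberg adjusted p under 0.05 over all genes tested were called. Comparisons within a line used that line's libraries (residual degrees of freedom 4 or 5), and comparisons between lines used all 34 (17). SE is the log2 change divided by the square root of F, and 33 comparisons plus 13 added after seeing the data were run. Likeness used log2(CPM + 1) group means. CPM per kb used the exon union of GENCODE v29. Alternatives were RLE factors, no count filter, a replicate block, DESeq2 1.42.0, a fit of all lines and leaving out each library. The steps were tested on simulated data.

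Groups came from the labels. The 10 genes and all lists were chosen with earlier results of these data known. Named genes are the 10, the genes most like them by likeness, and from each list the called gene with the largest rise or fall in a comparison and genes with a group mean of at least 5 CPM. Other names, such as FGG, CD53, PDGFRB and DCN, were chosen after their values were seen. The table holds 16 values with the form of spreadsheet dates, in 12 genes, none among the 10. One gene linked to ERG is not reported here.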

Additional observations from a re-analysis of the deposited data

Results flagged for a closer look

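In 10 results of the 10 genes the effect differed between lines by an interaction test in edgeR, with Benjamini-Hochberg adjustment over all genes. For androgen against stripped serum on ACP, the log2 effect on TMPRSS2 was 3.21 higher in VCaP than in MDAPCa2a and 2.59 higher in LNCaP than in MDAPCa2a, and that on ETV4 was 1.97 higher in VCaP than in MDAPCa2a. For stripped against control medium on plastic, the effect on TMPRSS2 was 3.19 higher in MDAPCa2a than in VCaP and 3.43 higher than in LNCaP, with control libraries labelled as continuous culture. In the same contrast the effect on EHF was 1.33 higher in MDAPCa2a than in LNCaP, and that on ETS1 differed by -3.22 (MDAPCa2a minus VCaP), where MDAPCa2a in stripped serum held 4 and 1 ETS1 reads. The stripped VCaP side of the TMPRSS2 and ETS1 differences from VCaP is 1 library with no replicate. For androgen against control medium on ACP, the effect on EHF was 0.84 higher in VCaP than in LNCaP, that on ETV4 was 2.94 higher in VCaP than in RWPE, and that on ETS2 was 1.24 higher in LNCaP than in RWPE. In LNCaP this contrast cannot be told apart from what DSCAM-AS1 separates, and in RWPE it also leaves a serum-free control medium. Of these 10, the calls that held without each single library in turn were TMPRSS2 in VCaP against MDAPCa2a with androgen and TMPRSS2 and EHF in MDAPCa2a against LNCaP with stripping. The ETV4 call in VCaP against RWPE was lost without VCaP control replicate 1 alone. The contrasts with plastic control share their libraries, as do the contrasts with androgen.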

How the results depend on the processing

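Each comparison is given by the number of the 10 genes called. Without 1 library, the count went from 4 to 0 to 1 for surface in RWPE in control medium, from 1 to 0 to 2 in LNCaP, from 1 to 0 to 2 for stripping on plastic in VCaP and from 1 to 0 in MDAPCa2a, from 2 to 1 to 3 for stripping on ACP in LNCaP, and from 2 to 1 to 3 for androgen in LNCaP and 4 to 2 to 3 in VCaP. For androgen against control medium it went from 2 to 0 to 3 in RWPE, from 2 to 1 to 3 in LNCaP and from 4 to 0 to 3 in VCaP. For differences of effects it went from 2 to 1 to 2 (androgen, VCaP minus MDAPCa2a), 1 to 0 to 1 (androgen, LNCaP minus MDAPCa2a), 2 to 0 to 1 (stripping on plastic, MDAPCa2a minus VCaP), 0 to 0 to 1 (stripping, LNCaP, ACP minus plastic, and stripping on ACP, VCaP minus LNCaP), and for androgen against control medium 1 to 0 to 1 (VCaP minus LNCaP, LNCaP minus RWPE) and 1 to 0 to 2 (VCaP minus RWPE). The share of all genes called moved too. Without 1 library it went from 4.16% to 0.0267% to 0.724% for surface in RWPE in control medium, from 12.6% to 0% to 15.8% in LNCaP, from 9.45% to 2.06% to 9.55% for stripping on plastic in LNCaP, from 0.89% to 0.581% to 1.42% in VCaP, from 1.58% to 0% to 0.0506% in MDAPCa2a, from 5.37% to 1.27% to 5.1% for stripping on ACP in LNCaP, and from 7.73% to 1.34% to 11.8% for androgen in LNCaP and 17.5% to 4.95% to 15% in VCaP. For androgen against control medium it went from 19.1% to 0% to 42.3% in RWPE, from 15.1% to 4.64% to 17% in LNCaP and from 5.99% to 0.558% to 1.67% in VCaP. ELF3 in LNCaP, androgen against control medium, went from -0.16 to 0.82 without control replicate 2 and to -0.73 without control replicate 1. Without the count filter the counts were 2 (surface in LNCaP in control medium), 1 (surface in VCaP in control medium), 2 (stripping on plastic, VCaP and MDAPCa2a), 4 and 1 (stripping on ACP, LNCaP and VCaP), 1 (surface in stripped LNCaP), 4 and 1 (androgen, LNCaP and MDAPCa2a), 1 in the differences of stripping listed with 0 and in stripping on plastic, VCaP minus LNCaP, and, for androgen against control medium, 0 (VCaP minus LNCaP) and 4 (VCaP minus RWPE). DESeq2 gave 1 (surface in VCaP in control medium), 2 and 1 (stripping in VCaP on plastic and on ACP), 1 and 1 (differences of stripping, VCaP minus LNCaP, on plastic and on ACP), and 2 and 4 (androgen against control medium, VCaP minus LNCaP and VCaP minus RWPE). RLE factors gave 0 for stripping on plastic in VCaP and 0 for androgen against control medium, VCaP minus LNCaP. The fit of all lines gave 2 (stripping on plastic in VCaP), 1 (androgen in LNCaP) and 1 (androgen against control medium in RWPE and in LNCaP). The cause was not tested. Shares of all genes called without the count filter, by DESeq2, with RLE factors and in the fit of all lines are not given here. These counts, and the DESeq2 counts in the sections above, therefore have no background beside them. Equal replicate numbers did not pair the samples: over 25 pairs of groups the correlation of same-numbered deviations ran from -0.234 to 0.207. With the replicate number as a block, stripping on plastic gave 0 in VCaP and in MDAPCa2a. The differences of stripping on plastic gave 1 (MDAPCa2a minus VCaP) and 2 (VCaP minus LNCaP). Androgen against control medium gave 4 in RWPE and 2 for VCaP minus RWPE. In RWPE, replicate 3 exists only on ACP with androgen, so the block took up that whole library, much as leaving it out would. With this block the RWPE share of all genes called went from 19.1% to 40.2% for androgen against control medium. For surface in control medium it went from 4.16% to 18.6%. Of 2460 single-gene values without 1 library, 112 lost their call, 19 gained one and 1 reversed. Stripped VCaP on plastic is 1 library and could not be left out. Depth limits ERG in stripped LNCaP on plastic (3 reads in all) and in stripped MDAPCa2a on ACP (2), ETS1 in MDAPCa2a (5 to 62 reads a group) and ETV4 in VCaP (5 to 136).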
